A study of Mus musculus with 3 samples.

Results

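The genes described here are 33 genes of protein folding in the endoplasmic reticulum and of the unfolded protein response, followed through the cell classes of the mouse ventricle in 3 droplet libraries. They were taken by symbol from the gene rows of the count matrices, and all 33 were found among 29994 genes. By role they comprise 11 chaperones and co-chaperones, 6 disulfide or proline isomerases and collagen chaperones, 3 stress transcription factors, 3 stress sensors, 6 genes of degradation and 4 targets of the integrated stress response. The rule that names them uses no measured value, but earlier results of the same data were known when they were chosen.

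Messenger RNA was counted with unique molecular identifiers (UMIs) on the 10x Genomics platform in ventricular tissue of C57B6 mice that had been kept frozen. The TAC+ART library came from mice given transverse aortic constriction (TAC), a surgical narrowing of the aorta that loads the left ventricle with pressure, and artesunate (ART), an artemisinin-type antimalarial drug. The TAC library came from constricted mice given vehicle, and the Sham library from mice of the Sham group, also given vehicle. Each library pooled the ventricles of 3 mice, so there was 1 library per group, no spread between animals could be measured and no test was possible. No source used here gives the age or sex of the mice, the artesunate dose or the time after surgery. Whether the barcodes, here called cells, stand for nuclei or whole cells is likewise unknown. By its title the series looks for treatments of cardiac fibrosis.

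Secreted and membrane proteins fold in the endoplasmic reticulum, helped by chaperones such as BiP, by lectin chaperones that hold sugar-bearing chains, and by isomerases that set disulfide bonds and proline turns. When unfolded chains accumulate, the sensors IRE1, ATF6 and PERK start the unfolded protein response, in which the transcription factors XBP1, cleaved ATF6 and ATF4 raise chaperone, degradation and amino acid genes. Fibroblasts that secrete collagen depend on this machinery, and in cardiomyocytes it has been studied under pressure load.

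ATF6 and XBP1 act through short promoter elements, so the promoters of the 4 members that the results turn on most are shown with that of Serpinh1, a member with no match to the longer motifs. The elements searched were ERSE (CCAAT, then 9 bases of any kind, then CCACG), ERSE-II (ATTGG, 1 base, CCACG), UPRE (TGACGTGG) and CARE (TGATGCAAT), each on both strands, plus CCACG, the stretch that ERSE and ERSE-II both contain. Windows of 250 bases before the annotated start were taken from RefSeq (GRCm38.p6) and are written 5′ to 3′ along the gene, with both parts of a match in capitals; on the opposite strand a match reads CGTGG and then ATTGG. The Hspa5 window lies at chr2:34771840-34772089 (plus strand), Calr at chr8:84846932-84847181 (minus strand), Hsp90b1 at chr10:86705445-86705694 (minus strand), Herpud1 at chr8:94386179-94386428 (plus strand) and Serpinh1 at chr7:99353240-99353489 (minus strand).
Hspa5: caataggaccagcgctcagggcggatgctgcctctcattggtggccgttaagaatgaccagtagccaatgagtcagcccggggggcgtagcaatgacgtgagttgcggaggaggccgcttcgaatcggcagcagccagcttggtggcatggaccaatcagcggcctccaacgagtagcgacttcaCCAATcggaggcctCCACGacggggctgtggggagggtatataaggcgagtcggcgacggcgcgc
Calr: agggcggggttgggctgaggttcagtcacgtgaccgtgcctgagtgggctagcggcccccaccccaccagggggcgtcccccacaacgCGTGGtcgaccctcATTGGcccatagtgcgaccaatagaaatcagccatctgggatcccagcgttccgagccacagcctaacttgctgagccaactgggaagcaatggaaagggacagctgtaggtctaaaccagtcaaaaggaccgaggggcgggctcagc
Hsp90b1: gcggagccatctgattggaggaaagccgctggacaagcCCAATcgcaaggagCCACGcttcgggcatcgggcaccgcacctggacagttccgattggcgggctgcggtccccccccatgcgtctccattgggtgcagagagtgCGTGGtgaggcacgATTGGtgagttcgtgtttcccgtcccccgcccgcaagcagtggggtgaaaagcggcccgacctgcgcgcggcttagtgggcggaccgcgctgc
Herpud1: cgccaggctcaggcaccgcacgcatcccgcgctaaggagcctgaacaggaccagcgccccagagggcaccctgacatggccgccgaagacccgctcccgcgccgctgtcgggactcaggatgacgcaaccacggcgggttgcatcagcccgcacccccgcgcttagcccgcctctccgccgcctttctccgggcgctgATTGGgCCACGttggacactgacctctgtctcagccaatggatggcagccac
Serpinh1: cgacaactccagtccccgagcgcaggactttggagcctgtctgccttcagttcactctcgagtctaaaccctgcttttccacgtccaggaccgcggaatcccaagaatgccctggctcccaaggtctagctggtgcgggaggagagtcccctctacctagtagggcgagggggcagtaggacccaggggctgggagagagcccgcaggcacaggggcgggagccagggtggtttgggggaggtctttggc

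The Hspa5 match begins 65 bases before the start, the Calr match 162 bases before it on the opposite strand, and Hsp90b1 holds 2 matches, at 212 and 107 bases. Herpud1 holds ERSE-II, 52 bases before the start. Over windows that also include 50 bases after the start, ERSE was found in 9 of the 29 members with a window (Hspa5, Calr, Canx, Hsp90b1, Pdia6, Dnajc3, Creld2, Syvn1 and Derl3) and in 39 of all 32851 windows (0.119%). ERSE-II was found in Herpud1 and Dnajb11, against 0.0365% of all windows. UPRE and CARE were found in 0 of the 29, against 0.676% and 0.192% of all windows, and CCACG alone in 24 of 29, against 32.8%. A match is a string of letters and not a measured binding site. Manf, Atf6, Hyou1 and Derl1 are named without a window.

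Barcodes numbered 6856 in TAC+ART, 7413 in TAC and 3752 in Sham, with 33364667, 37658150 and 17710689 UMIs. After filters and removal of likely doublets, 6480, 6972 and 3638 cells were left in that order. Between 20 and 27 barcodes were shared by any 2 libraries. Cells were assigned to a class by a score averaged over the levels of fixed marker genes. Of these cells 10.6%, 12.2% and 9.81%, in the same order, met no gate with the required margin. Fibroblast-like cells numbered 1499 in TAC+ART, 1410 in TAC and 892 in Sham, endothelial-like cells 1908, 2058 and 1098, and macrophage-like cells 961, 1303 and 310. Cardiomyocyte-like cells numbered 446, 319 and 324, and pericyte-like cells 465, 365 and 378. Cells close to a gate's limits numbered 151, 148 and 104 for the fibroblast-like class and 56, 60 and 22 for the cardiomyocyte-like class. The median fibroblast-like cell had 142, 111 and 104 fibroblast marker UMIs per 10000, 44.3, 40.7 and 38.0 cardiomyocyte marker UMIs, 22.4, 22.9 and 24.5 B cell marker UMIs, and at most 2.87 of any other list. Levels are given as UMIs of the gene per 1000000 UMIs of the class (CPM). Ratios are log2 ratios of CPM with 0.5 UMIs added to each sum, followed in brackets by a 95% interval that covers counting error only. A gene is counted as higher or lower when its ratio reaches 1.5-fold and it has at least 50 UMIs in the 2 libraries together.

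In fibroblast-like cells the folding genes were higher in TAC than in Sham as a broad set, led by Serpinh1, Calr, Pdia6 and Hspa5, while the sensors stayed close to the Sham level and Herpud1 and Trib3 were below it. Of 29 members with at least 50 UMIs in TAC and Sham, 17 were at least 1.5-fold higher in TAC, where 17.5% of all 12992 genes at that depth were. One of the 29 was at least 1.5-fold lower, against 13% of all genes. The median over the members was 0.67, against 0.02 over all genes. Relative to TAC, 13 of 30 members were lower in TAC+ART and 2 were higher, against 7.57% and 8.07% of all genes, and the median was -0.50. Set against Sham, TAC+ART had 8 of 29 higher and 1 lower, against 9.93% and 5.8% of all genes, and the median was 0.24. Summed over all 33 members, the level was 2059 CPM in TAC+ART, 3029 in TAC and 1587 in Sham. The comparisons share libraries, so their values are set side by side and not correlated.

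Among the chaperones, Hspa5, which encodes BiP, the main Hsp70-type chaperone of the compartment, stood at 124 CPM in TAC+ART, 278 in TAC and 80.3 in Sham. Calr, calreticulin, a lectin chaperone that also binds calcium, stood at 116 CPM in TAC+ART, 232 in TAC and 58.8 in Sham. Hsp90b1, the Hsp90-type chaperone GRP94, stood at 209 CPM in TAC+ART, 335 in TAC and 119.7 in Sham. For each of the 3 genes TAC was the highest library, TAC+ART came next, Sham was lowest, and the counting intervals of the libraries did not overlap. The TAC over Sham ratio was 1.79 (1.63 to 1.96) for Hspa5, 1.98 (1.79 to 2.17) for Calr and 1.49 (1.35 to 1.62) for Hsp90b1. The TAC+ART over TAC ratio was -1.17 (-1.27 to -1.06), -0.999 (-1.11 to -0.89) and -0.68 (-0.77 to -0.60) in the same order. Relative to Sham, TAC+ART still had ratios of 0.62 (0.45 to 0.80), 0.98 (0.78 to 1.18) and 0.80 (0.66 to 0.94).

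Canx, calnexin, the membrane-bound partner of calreticulin, stood at 113 CPM in TAC+ART, 170.4 in TAC and 104 in Sham. Its TAC+ART and Sham intervals overlapped, with a TAC over Sham ratio of 0.71 (0.56 to 0.87); against TAC, the TAC+ART ratio was -0.59 (-0.71 to -0.48). The J-domain co-chaperones of BiP differed among themselves. Dnajb11 stood at 26.8 CPM in TAC+ART, 42.1 in TAC and 21.2 in Sham, Dnajc3 at 118 CPM in TAC+ART, 149 in TAC and 92.2 in Sham, and Dnajb9 at 16.9 CPM in TAC+ART, 15.1 in TAC and 15.5 in Sham. Dnajb11 and Dnajc3 were thus highest in TAC, at 0.98 and 0.69 over Sham, whereas the Dnajb9 ratio was -0.04 (-0.47 to 0.40), an interval that spans 0.

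Hyou1, an exchange factor that resets BiP, stood at 7.85 CPM in TAC+ART, 18.6 in TAC and 11.9 in Sham. It was the one chaperone that was at least 1.5-fold lower in TAC+ART than in Sham, at -0.61 (-1.14 to -0.06), and its TAC+ART over TAC ratio of -1.24 (-1.68 to -0.82) was the lowest among the members. Manf, a stress-induced protein of the compartment, stood at 57.1 CPM in TAC+ART, 69.9 in TAC and 44.2 in Sham. Creld2, another protein resident there, stood at 6.56 CPM in TAC+ART, 11.1 in TAC and 6.64 in Sham. Both were highest in TAC. Sdf2l1, a partner of Dnajb11, rested on 17 UMIs in TAC+ART, 34 in TAC and 9 in Sham, too few for a ratio to Sham under the minimum used.

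The isomerases and the collagen chaperone formed the most uniform role, with all 6 at least 1.5-fold higher in TAC than in Sham and 5 of 6 at least 1.5-fold lower in TAC+ART than in TAC. Serpinh1, the collagen-specific chaperone Hsp47, stood at 156 CPM in TAC+ART, 312 in TAC and 74.5 in Sham. Its TAC over Sham ratio of 2.07 (1.90 to 2.23) was the highest of the 29 members tested, and its TAC+ART over TAC ratio was -0.998 (-1.09 to -0.90). Even so TAC+ART remained above Sham by 1.07 (0.89 to 1.25), which was also the highest value of any member in that comparison.

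Pdia6, a disulfide isomerase, stood at 60.2 CPM in TAC+ART, 111 in TAC and 31 in Sham. Pdia3, the isomerase that works with calnexin and calreticulin, stood at 139 CPM in TAC+ART, 213 in TAC and 85.2 in Sham, and Pdia4 at 23.8 CPM in TAC+ART, 37.2 in TAC and 12.8 in Sham. All 3 were highest in TAC and lowest in Sham, at 1.84, 1.32 and 1.52 for TAC over Sham. P4hb, a disulfide isomerase that is also a subunit of collagen prolyl 4-hydroxylase, stood at 86.7 CPM in TAC+ART, 132 in TAC and 61.9 in Sham. Ppib, cyclophilin B, a proline isomerase of the collagen pathway, stood at 87.4 CPM in TAC+ART, 118 in TAC and 47.8 in Sham. The order of the libraries was the same again, and Ppib was the role's exception in TAC+ART over TAC, at -0.43 (-0.57 to -0.30), short of 1.5-fold.

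The transcription factor genes differed less. Xbp1, whose messenger RNA is spliced by IRE1, stood at 63.1 CPM in TAC+ART, 92.4 in TAC and 63 in Sham, with a TAC over Sham ratio of 0.55 (0.35 to 0.75) that stayed short of 1.5-fold; counts per gene do not separate its spliced form. Atf4, the factor translated when PERK is active, stood at 48.2 CPM in TAC+ART, 64.7 in TAC and 40.7 in Sham and reached 0.67 (0.43 to 0.92). Ddit3, which encodes the factor CHOP, stood at 23.1 CPM in TAC+ART, 22.6 in TAC and 25.7 in Sham, and the intervals of its 3 levels overlapped.

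The 3 sensors showed no ratio of 1.5-fold in either direction. Ern1, which encodes IRE1, stood at 70.1 CPM in TAC+ART, 79.3 in TAC and 76.1 in Sham, Atf6 at 118 CPM in TAC+ART, 110.1 in TAC and 127 in Sham, and Eif2ak3, which encodes PERK, at 91.4 CPM in TAC+ART, 101 in TAC and 96.4 in Sham. Their TAC over Sham ratios were 0.06 (-0.13 to 0.25), -0.20 (-0.35 to -0.05) and 0.07 (-0.09 to 0.24), so Atf6 was slightly below Sham beyond counting error and the other two were not apart from it. These are levels of messenger RNA and do not measure cleavage or phosphorylation of the sensors.

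Degradation genes divided. Edem1, a mannosidase-like protein that marks chains for disposal, stood at 36.2 CPM in TAC+ART, 50.6 in TAC and 30.1 in Sham and was the one member of the role at least 1.5-fold higher in TAC than in Sham, at 0.75 (0.47 to 1.04). Sel1l and Syvn1, the adaptor and the ligase of the main disposal complex, had ratios of 0.39 (0.20 to 0.58) and 0.40 (-0.02 to 0.84), and Derl1, a channel protein, 0.31 (0.08 to 0.54). Herpud1, a membrane protein of the same complex, ran the other way. It stood at 106 CPM in TAC+ART, 70.1 in TAC and 105 in Sham, so TAC was the lowest library and TAC+ART and Sham lay together. Its TAC over Sham ratio of -0.58 (-0.76 to -0.41) lay just short of 1.5-fold, and its TAC+ART over TAC ratio of 0.60 (0.45 to 0.75) just past it. Derl3 was near absent, with at most 1 UMI in a library.

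The targets of the integrated stress response, which ATF4 drives, were scarce. Trib3, a pseudokinase, had 57 UMIs in TAC+ART, 37 in TAC and 44 in Sham, or 6.68 CPM in TAC+ART, 4.19 in TAC and 9.73 in Sham. It was lowest in TAC, with -1.21 (-1.89 to -0.55) over Sham, and was the one member counted as lower there. Sesn2, a sestrin, stood at 5.16 CPM in TAC+ART, 5.89 in TAC and 4.2 in Sham with overlapping intervals. Asns, asparagine synthetase, had 14 UMIs in TAC+ART, 14 in TAC and 8 in Sham. Chac1, which degrades glutathione, had at most 2 UMIs in any library.

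**Figure D1:**
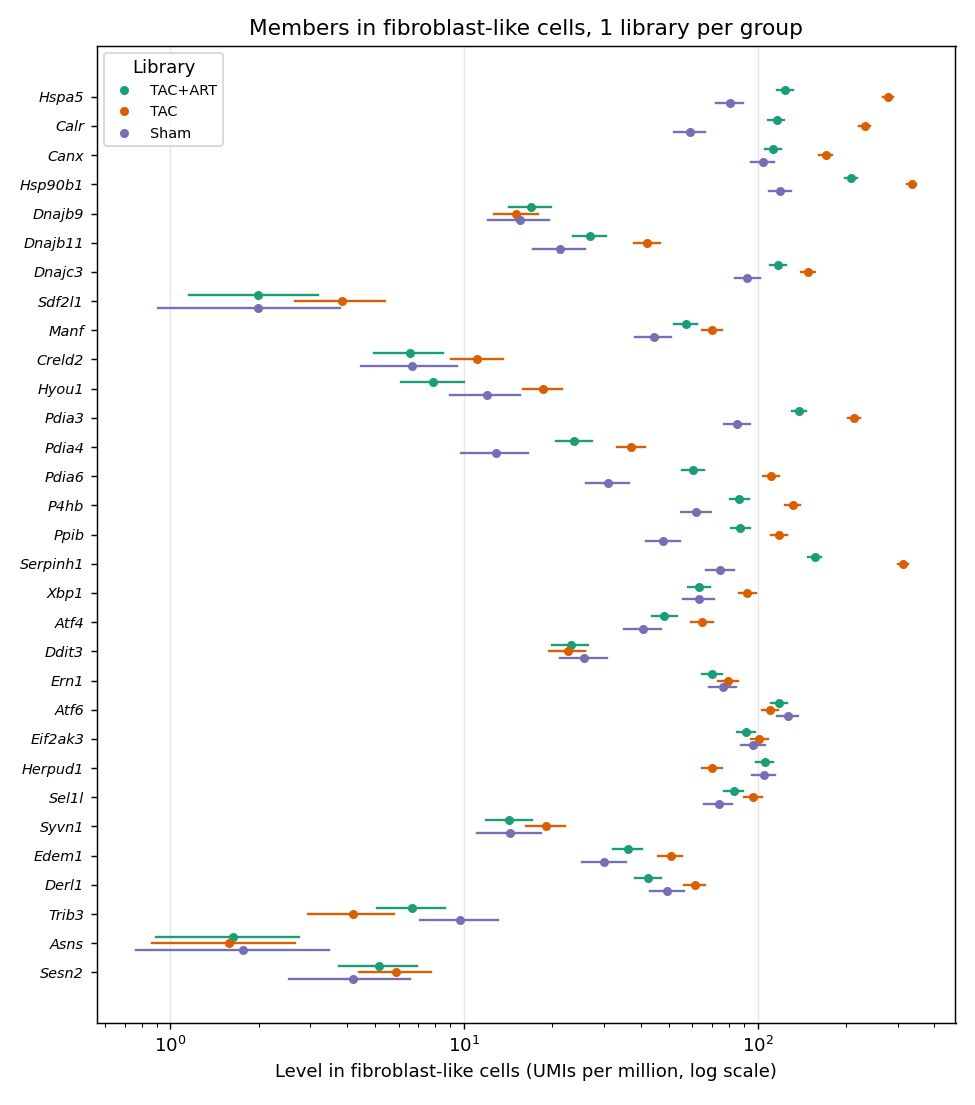
Levels of the members in fibroblast-like cells of the TAC+ART, TAC and Sham libraries, in CPM on a log scale; points are 1 library each and bars are 95% Poisson intervals for counting error. Members with fewer than 3 UMIs in a library are left out. Hspa5 stands at 124, 278 and 80.3 CPM in that order, while Herpud1 is lowest in TAC.

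Fibroblast-like cells did not fall into the same clusters in each library. Clusters were made from all libraries together, without correction between libraries. Their shares do not separate a different mixture of cells from a shift within the same cells, and neither was tested. Of the 4 fibroblast-like clusters, found without the members, cluster 2 held 14.6% of fibroblast-like cells in TAC+ART, 70.1% in TAC and 2.35% in Sham. In the same order, cluster 3 held 53.8%, 4.18% and 35.4%, and cluster 13 held 6.67%, 1.35% and 25.2%. Another 1.53%, 5.89% and 0.336% lay in cluster 15, which was left unnamed. Cluster 5, led by C7 and Scara5, was filled by all 3 libraries, with 338, 254 and 324 cells. Within cluster 5, Hspa5 stood at 127 CPM in TAC+ART, 271 in TAC and 86.9 in Sham, Calr at 137 CPM in TAC+ART, 242 in TAC and 67.4 in Sham and Serpinh1 at 163 CPM in TAC+ART, 269 in TAC and 78.6 in Sham. TAC was again the highest library for each, with TAC over Sham ratios of 1.64 (1.38 to 1.91), 1.84 (1.55 to 2.15) and 1.77 (1.499 to 2.05). Herpud1 stood at 92.6 CPM in TAC+ART, 58.8 in TAC and 100.3 in Sham there, lowest in TAC as in the whole class. Over the members, the cluster 5 median of TAC over Sham was 0.52, with 12 of 26 higher and 3 lower, against 16.0% and 12.2% of all genes in the same cells, so the lower count was at the background. Set against TAC, the TAC+ART cells of cluster 5 had 7 of 25 members lower and 2 higher, against 7.59% and 7.75% of all genes, with a median of -0.33; here the higher count was at the background.

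Postn, which encodes periostin and marks fibroblasts activated by load, was also used to divide the class. A Postn UMI was found in 50.7% of fibroblast-like cells of TAC+ART, 84.7% of TAC and 8.63% of Sham, at median depths of 5547, 6335 and 4815.5 UMIs. Free RNA can also give such a UMI, and macrophage-like cells, which should lack Postn, showed it in 34.3%, 65.9% and 3.87% of cells at medians of 4351, 4749 and 4220 UMIs. At 1000 UMIs per cell the shares were 20.9%, 45.8% and 3.48% in fibroblast-like cells, against 8.95%, 22.3% and 1.61% in macrophage-like cells. Fibroblast-like cells without a Postn UMI had Hspa5 at 116 CPM in TAC+ART, 236 in TAC and 79 in Sham, and Serpinh1 at 138 CPM in TAC+ART, 258 in TAC and 74.3 in Sham. The order of the libraries was kept in these cells. Summed over the 33 members, cells with a Postn UMI were higher than cells without one in each library, at 2149 against 1957 CPM in TAC+ART, 3083 against 2686 in TAC, and 1915 against 1551 in Sham. Cells with the mark were also deeper and had more ribosomal protein RNA, and the part of either in this difference was not tested.

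**Figure D2:**
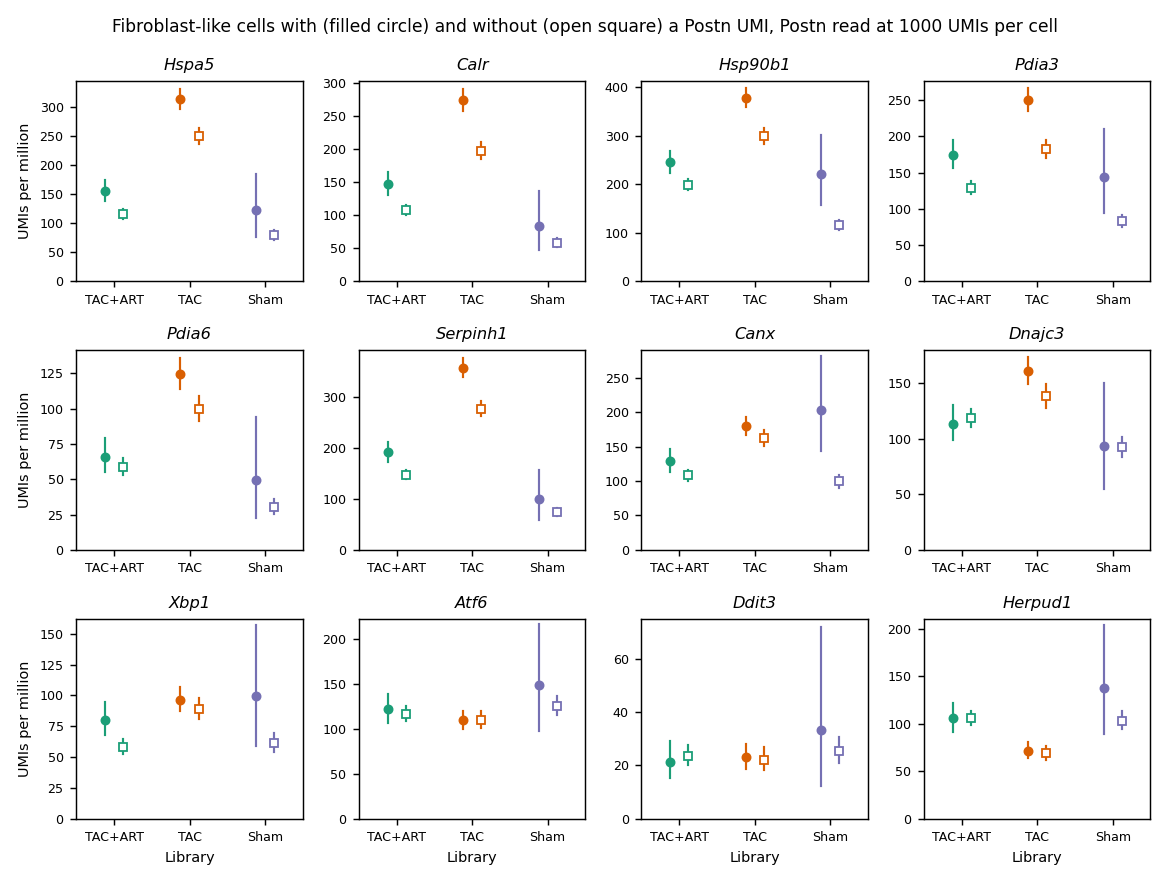
Levels of 12 members in fibroblast-like cells with a Postn UMI (filled circles) and without one (open squares), with Postn read after thinning each cell to 1000 UMIs, in TAC+ART, TAC and Sham. Bars are 95% Poisson intervals; the Sham cells with a Postn UMI numbered 31 at this depth, so their bars are wide. Hspa5 stands at 155, 314 and 121 CPM with Postn and 115, 249 and 78.6 CPM without it.

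In macrophage-like cells, 13 of 29 members were higher in TAC than in Sham and 0 were lower, against 11.8% and 12.3% of all genes, with a median of 0.53. Of the same number in TAC+ART over TAC, 11 were lower and 0 higher, against 6.69% and 6.64%, with a median of -0.46. Hspa5 stood at 125 CPM in TAC+ART, 219 in TAC and 102 in Sham, and Calr at 94.3 CPM in TAC+ART, 169 in TAC and 66 in Sham. TAC was highest for both, and for Hspa5 the intervals of TAC+ART and Sham overlapped. Creld2 stood at 4.89 CPM in TAC+ART, 10.8 in TAC and 2.81 in Sham, resting on 4 UMIs in Sham. Its ratio of 1.79 (0.53 to 3.86) is correspondingly wide. The folding enzymes Pdia6 and Pdia3 had TAC over Sham ratios of 1.39 (0.97 to 1.86) and 1.03 (0.79 to 1.29). Serpinh1 had 1.83 (1.29 to 2.47), at 49.4 CPM in TAC+ART, 68.6 in TAC and 19 in Sham. That gene is one of collagen-making cells, and all 10 fibroblast markers were seen in macrophage-like cells. Of the 9 with 50 UMIs, 6 were higher and 2 lower in TAC than in Sham, and their sum was 2762 CPM in TAC+ART, 2366 in TAC and 1398 in Sham; their part in the result was not tested. The class was also made of different clusters, with cluster 7 holding 2.39% of it in TAC+ART, 73.5% in TAC and 1.61% in Sham, and cluster 6 holding 77.3%, 1.92% and 71.6%.

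In endothelial-like cells the member medians lay nearer to 0. In TAC over Sham, 9 of 30 members were higher and 1 was lower, against 10.8% and 9.71% of all genes, with a median of 0.31. When TAC+ART was set against TAC, 2 of 30 were lower and 0 higher, against 5.36% and 6.71% of all genes, so that count was near the background, with a median of -0.17. Hspa5 stood at 119.8 CPM in TAC+ART, 174 in TAC and 85.3 in Sham, and Serpinh1 at 115 CPM in TAC+ART, 175 in TAC and 72 in Sham. TAC was highest in both, with ratios to Sham of 1.02 (0.86 to 1.19) and 1.28 (1.10 to 1.46). Pdia3 and Pdia4 reached 0.33 (0.19 to 0.47) and 0.29 (-0.08 to 0.69), short of 1.5-fold. Herpud1 stood at 96.1 CPM in TAC+ART, 67.3 in TAC and 87.2 in Sham, again lowest in TAC, and Trib3 at 11.2 CPM in TAC+ART, 8.87 in TAC and 17.1 in Sham, lowest in TAC as well. Of the clusters that made up this class, cluster 0 held 43.8% of it in TAC+ART, 36.7% in TAC and 40.2% in Sham, cluster 1 held 35.6%, 35.5% and 41.0%, and cluster 10 held 6.76%, 13.2% and 3.64%, so cluster 10 was most filled in TAC. Of the 9 fibroblast markers with 50 UMIs there, 7 were higher in TAC than in Sham, and the sum of all 10 was 3199 CPM in TAC+ART, 2693 in TAC and 1101 in Sham; their part in the ratios was not tested.

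In pericyte-like cells, 96.6% or more of which lay in the pericyte-like cluster in every library, 11 of 23 members were higher in TAC than in Sham and 0 lower, against 11.2% and 8.46% of all genes, with a median of 0.44. Against TAC, 3 of 26 in TAC+ART were lower and 0 higher, against 5.33% and 5.57%, with a median of -0.05. Calr stood at 74 CPM in TAC+ART, 112 in TAC and 41.3 in Sham, Hsp90b1 at 164 CPM in TAC+ART, 225 in TAC and 95.3 in Sham, and Serpinh1 at 94.8 CPM in TAC+ART, 145 in TAC and 64.3 in Sham. TAC was highest and Sham lowest for these 3 genes. Xbp1 stood at 62.4 CPM in TAC+ART, 53.4 in TAC and 53.4 in Sham, with a TAC over Sham ratio of 0.00 (-0.43 to 0.43). The TAC+ART over TAC ratio of Hspa5 was -0.51 (-0.76 to -0.27) in this class, short of 1.5-fold. All 10 fibroblast markers were seen in pericyte-like cells, 8 of the 9 with 50 UMIs were higher in TAC than in Sham, and their sum was 3709 CPM in TAC+ART, 3118 in TAC and 2042 in Sham; their part in the ratios was not tested.

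Cardiomyocyte-like cells gave counts that must be read against a wide background. Their median depth was 4840.5 UMIs in TAC+ART, 3584 in TAC and 7249.5 in Sham. Mitochondrial genes made up 1.57%, 2.58% and 1.09% of their UMIs in that order, and Malat1 9.84%, 8.03% and 11.9%. The part of these differences in the ratios was not tested. In TAC over Sham, 14 of 23 members were higher and 2 were lower, but 27.4% and 18.6% of all 8110 genes were too; the median was 0.78. TAC+ART had 6 of 24 lower than TAC and 2 higher, against 19% and 9.96%, with a median of -0.41. Hspa5 stood at 133 CPM in TAC+ART, 265 in TAC and 79.3 in Sham, Calr at 58.5 CPM in TAC+ART, 141 in TAC and 44.4 in Sham, and Serpinh1 at 57.3 CPM in TAC+ART, 138 in TAC and 38.2 in Sham. TAC was highest in each. Ddit3 stood at 51.4 CPM in TAC+ART, 24 in TAC and 47.7 in Sham and Ern1 at 46.9 CPM in TAC+ART, 26.9 in TAC and 51.4 in Sham, both lowest in TAC, with TAC over Sham ratios of -0.97 (-1.59 to -0.41) and -0.93 (-1.51 to -0.39).

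The gated cardiomyocyte-like cells did not fall into the same clusters in each library. Cluster 11, the one named from cardiomyocyte markers, held 59.4% of gated cardiomyocyte-like cells in TAC+ART, 35.1% in TAC and 79.6% in Sham. The unnamed clusters 15 and 16 held 11.7%, 15.7% and 3.09%, and 17.0%, 30.7% and 8.95%. All 10 fibroblast markers were seen in the gated cells, and the 9 with 50 UMIs were all higher in TAC than in Sham. The summed fibroblast markers stood at 2769 CPM in TAC+ART, 3122 in TAC and 817 in Sham in the whole gate, and at 1679, 1546 and 529 in cluster 11, so the difference from Sham was present in both; its part in the ratios was not tested. Inside cluster 11, Hspa5 stood at 87.8 CPM in TAC+ART, 151 in TAC and 53.5 in Sham, Calr at 33.1 CPM in TAC+ART, 66.3 in TAC and 30.4 in Sham, and Hsp90b1 at 98.7 CPM in TAC+ART, 146 in TAC and 76.6 in Sham. TAC remained highest, at 1.501 (1.10 to 1.90), 1.13 (0.54 to 1.70) and 0.93 (0.56 to 1.301) over Sham. Outside cluster 11, where median depth was 2502 UMIs in TAC+ART, 2437 in TAC and 2713 in Sham, Hspa5 stood at 279 CPM in TAC+ART, 389.5 in TAC and 312 in Sham, with 0.31 (-0.07 to 0.73) for TAC over Sham. Over the cells that gate and clusters both called cardiomyocyte-like, 8 of 18 members were higher in TAC than in Sham and 4 were lower, against 14.7% and 14.6% of all genes, with a median of 0.35. These cells in TAC+ART had 4 of 18 lower than in TAC and 4 higher, against 11.9% and 8.11% of all genes, with a median of -0.12. Herpud1, Ddit3 and Ern1 in cluster 11 had TAC over Sham ratios of -0.92 (-1.45 to -0.45), -1.02 (-1.89 to -0.30) and -0.96 (-1.73 to -0.30).

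Endocardial-like and lymphatic endothelial-like cells were not counted by member but gave levels. Hspa5 stood at 137 CPM in TAC+ART, 142 in TAC and 68.4 in Sham in endocardial-like cells and at 109 CPM in TAC+ART, 157 in TAC and 68.6 in Sham in lymphatic endothelial-like cells. Serpinh1 stood at 129.8 CPM in TAC+ART, 124 in TAC and 52.4 in Sham in endocardial-like cells and at 90.9 CPM in TAC+ART, 114 in TAC and 42.9 in Sham in lymphatic endothelial-like cells. In the endocardial-like class TAC+ART and TAC lay close together for both genes, above Sham. Trib3 in lymphatic endothelial-like cells stood at 35.6 CPM in TAC+ART, 29.9 in TAC and 25.7 in Sham, and its level in each of the other 6 classes was at most 17.1 CPM in any library.

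**Figure D3:**
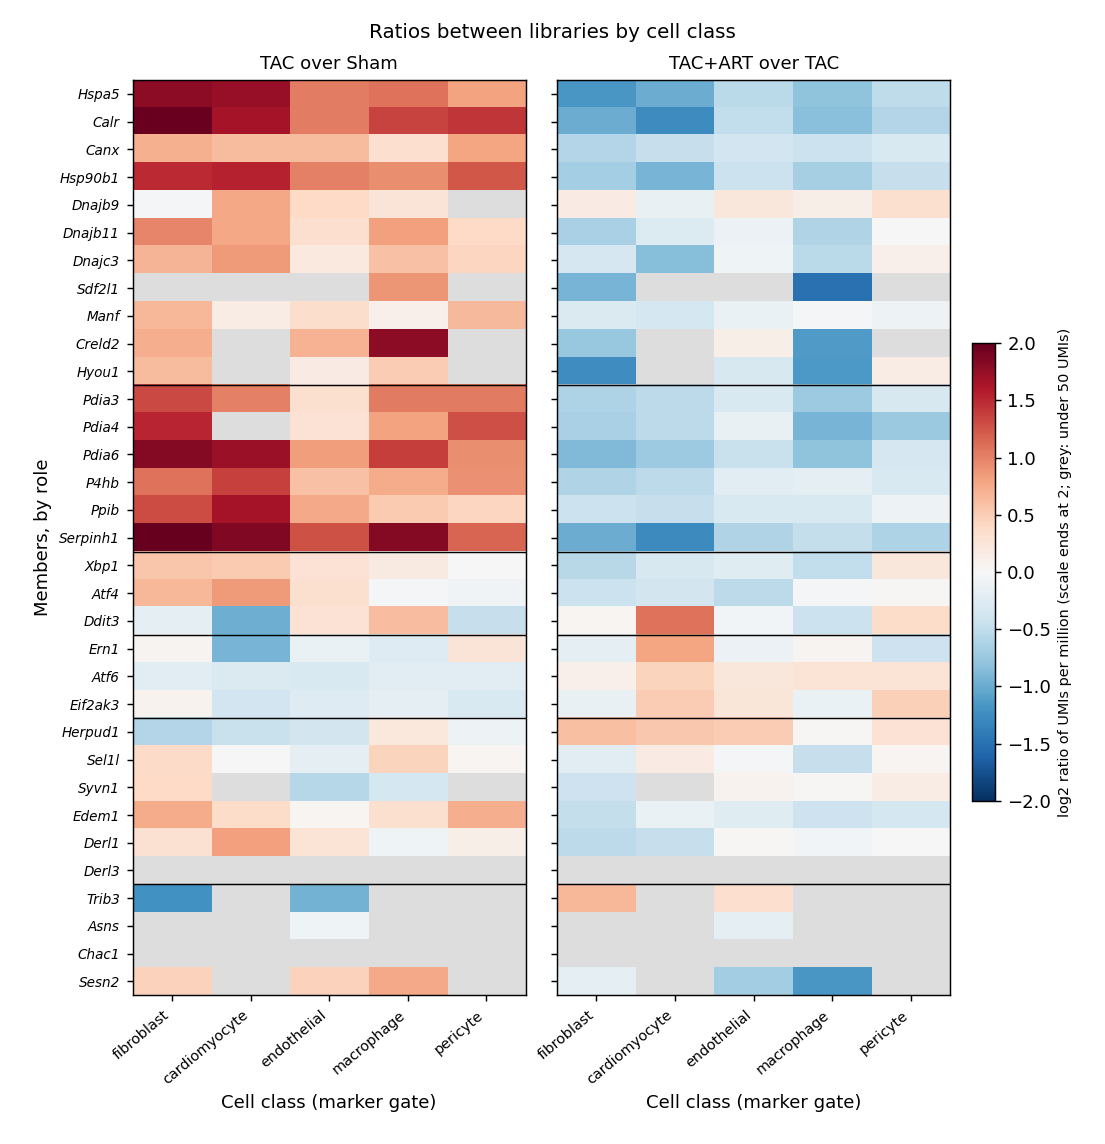
Log2 ratios of the 33 members, ordered by role between black lines, in 5 cell classes for TAC over Sham (left) and TAC+ART over TAC (right); red is higher and blue lower in the first-named library, and grey marks fewer than 50 UMIs. The upper rows, chaperones and isomerases, are red on the left, except Dnajb9 in fibroblast-like cells at -0.04, and mostly blue on the right, while Atf6 stays between -0.31 and -0.20 on the left. Both panels use the TAC library.

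Across classes, Hspa5, Calr, Hsp90b1, Pdia6, P4hb and Serpinh1 were at least 1.5-fold higher in TAC than in Sham in 5 of 5 classes, and Creld2 in each of the 3 classes where it had 50 UMIs. Xbp1, Atf6, Eif2ak3, Sel1l and Herpud1 were counted as higher in 0 of 5. Herpud1 was not lowest in TAC in macrophage-like cells, where its TAC over Sham ratio was 0.21. In pericyte-like cells it stood at 60.5 CPM in TAC+ART, 49.6 in TAC and 53.4 in Sham, with a ratio of -0.11. The ratio was -0.58 in fibroblast-like, -0.37 in endothelial-like and -0.45 in all gated cardiomyocyte-like cells. Calr and Serpinh1 were at least 1.5-fold below TAC in TAC+ART in 4 of 5 classes, and Hspa5, Hsp90b1, Pdia4 and Pdia6 in 3 of 5. These classes share libraries and free RNA, so they are not independent repeats.

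Levels of single genes also ordered the classes. Canx was highest in macrophage-like cells in all 3 libraries, at 195 CPM in TAC+ART, 263 in TAC and 208 in Sham, and its interval was apart from that of the next class each time. Atf6 was highest in cardiomyocyte-like and macrophage-like cells, at 353 CPM in TAC+ART, 258 in TAC and 316 in Sham for the first and 337 CPM in TAC+ART, 278 in TAC and 326 in Sham for the second, and these classes did not differ beyond their intervals. Ern1 was highest in macrophage-like cells, at 136 CPM in TAC+ART, 131 in TAC and 157 in Sham, although in TAC its interval met that of endocardial-like cells at 105 CPM. In Sham, Hspa5 was 102 CPM in macrophage-like cells and 68.4 CPM in endocardial-like cells, the highest and the lowest of 7 classes, but pericyte-like cells at 96.5 CPM did not differ from the first beyond counting error, nor lymphatic endothelial-like cells at 68.6 CPM from the second. In TAC the highest class was fibroblast-like, at 278 CPM, and cardiomyocyte-like cells at 265 CPM did not differ from it beyond counting error. For Serpinh1, fibroblast-like cells in TAC at 312 CPM were apart from endothelial-like cells at 175 CPM, but in Sham the same classes stood at 74.5 and 72.0 CPM.

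Some broad features of the libraries moved with these results. RNA of ribosomal protein genes made up 0.934% of fibroblast-like UMIs in TAC+ART, 1.23% in TAC and 0.486% in Sham, and 1.04%, 1.87% and 0.515% of cardiomyocyte-like UMIs. Summed cardiomyocyte markers in fibroblast-like cells, which should lack them, stood at 4608 CPM in TAC+ART, 4429 in TAC and 3877 in Sham, with 10 of 10 seen. Of 10 macrophage markers, all were seen there and 9 were higher in TAC than in Sham, at 236, 255 and 108 CPM in sum. Short genes as a whole were higher in TAC: of genes spanning under 10 kb, 33.1% were at least 1.5-fold higher than in Sham in fibroblast-like cells and 60.3% in cardiomyocyte-like cells. The members in that bin were 6 of 12 and 6 of 9. In fibroblast-like cells 5 of 6 members spanning 10 to 20 kb were higher, against 18.8% of all such genes, and 5 of 7 members of 20 to 50 kb, against 10.3%. In cardiomyocyte-like cells the members under 10 kb were thus at the background, while 3 of 3 of 10 to 20 kb and 5 of 7 of 20 to 50 kb were higher, against 38.5% and 18.9%. Against TAC, the short genes of TAC+ART lay lower: 12.6% of genes under 10 kb were lower in fibroblast-like cells, with 5 of 13 members, and 46.6% in cardiomyocyte-like cells, with 3 of 9 members, fewer than the background. Of 10 to 20 kb, 7.65% of all genes and 5 of 6 members were lower in fibroblast-like cells, and 25.2% and 2 of 4 in cardiomyocyte-like cells. Of 20 to 50 kb, 5.49% of all genes and 3 of 7 members were lower in fibroblast-like cells, and 12.0% and 1 of 7 in cardiomyocyte-like cells. The part of gene span, ribosomal protein RNA and free RNA in the members' ratios was not tested further.

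**Figure D4:**
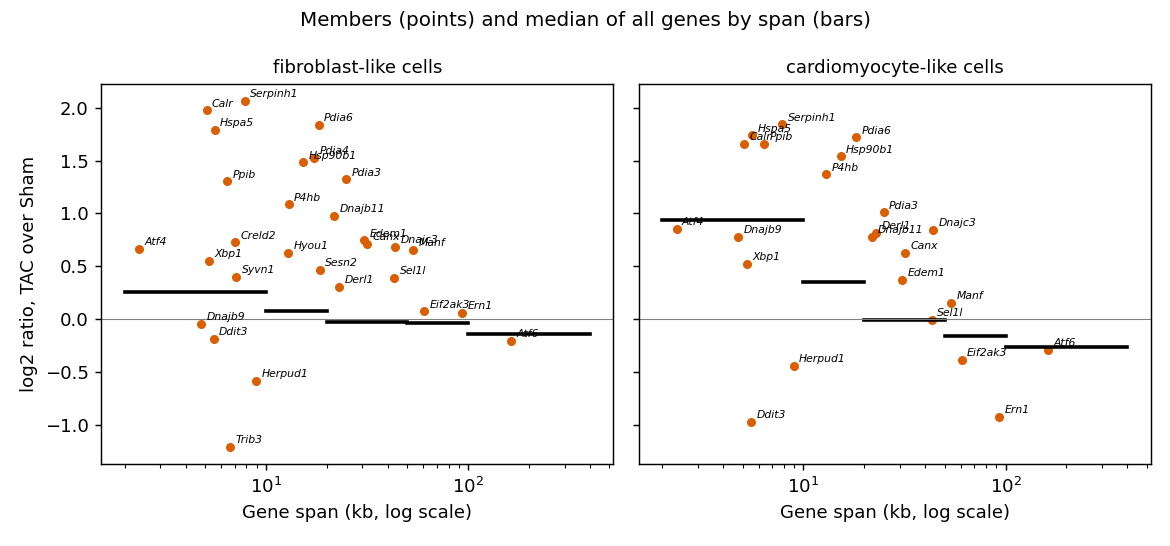
TAC over Sham log2 ratios of the members (points) against the span of the gene in kb on a log scale, in fibroblast-like and cardiomyocyte-like cells; black bars are the median ratio of all genes in the same range of span. For genes under 10 kb the median of all genes is 0.25 in fibroblast-like and 0.94 in cardiomyocyte-like cells. Pdia6, Hsp90b1 and Pdia3 lie far above the bar of their range.

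The other genes of the pathway were taken from lists by function, and their TAC over Sham counts in fibroblast-like cells stand against 17.5% of all genes higher and 13% lower. There, 15 of 28 other folding genes were higher in TAC than in Sham and 1 was lower, with a median of 0.62. Rpn1, a subunit of the enzyme that adds sugar chains, stood at 43.4 CPM in TAC+ART, 72.4 in TAC and 26.3 in Sham and was highest in TAC, while Ero1b, an oxidase that feeds disulfide formation, had a TAC over Sham ratio of -0.64. Of 18 genes of the translocon and signal peptide cleavage, 10 were higher and 0 lower, with a median of 0.64 and Sec61b, a channel subunit, at 1.504. Other degradation genes had 4 of 16 higher and 0 lower, with a median of 0.23, and collagen-processing genes 10 of 24 higher and 1 lower, with a median of 0.50. P3h2, a prolyl 3-hydroxylase, reached 2.01, and Colgalt2, a collagen galactosyltransferase, -1.08. Lower in TAC+ART than in TAC were 3 of the 28 folding genes, 1 of the 18 translocon genes, 0 of the 16 degradation genes and 3 of the 24 collagen-processing genes, with medians of -0.21, -0.36, -0.19 and -0.27. Those shares stand against 7.57% of all genes.

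In TAC over Sham, lists on the sensing side lay nearer to the 17.5% of all genes that were higher. Of 17 other sensors and transcription factors, 4 were higher and 0 lower in TAC, with a median of 0.20, and their extremes were Nupr1, a stress-induced transcription regulator, at 1.45 and Mbtps2, a protease that cleaves ATF6, at -0.49. Other amino acid response genes had 3 of 18 higher and 1 lower, with a median of 0.21, and 3 of 18 is at the 17.5% of all genes. Among them Slc7a11, the cystine transporter, stood at 80.7 CPM in TAC+ART, 26.3 in TAC and 86.0 in Sham, lowest in TAC like Trib3. In TAC+ART over TAC, 4 of the 17 other sensors and transcription factors were lower and 0 higher, with a median of -0.13. The 18 amino acid response genes had 3 lower and 1 higher there, with a median of -0.31. Those counts stand against 7.57% of all genes lower and 8.07% higher. Immediate early and cytosolic heat shock genes answer many stresses, including tissue handling. Of them, 18 of 21 were higher in TAC than in Sham, with a median of 1.02. Of these genes, 15 of 22 were at least 1.5-fold below TAC in TAC+ART and 0 higher, with a median of -0.79, against -0.50 over the members. The same list was lower in TAC+ART than in TAC in the other 4 classes too. The counts were 16 of 16 in cardiomyocyte-like and 19 of 22 in endothelial-like cells, against 19% and 5.36% of all genes. They were 15 of 22 in macrophage-like and 13 of 18 in pericyte-like cells, against 6.69% and 5.33%. The part of this list in the members' ratios was not tested.

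Set against the promoters shown above, 8 members with an ERSE had enough UMIs in fibroblast-like cells. Their median TAC over Sham ratio was 1.11. Of them 7 were at least 1.5-fold higher, against 17.5% of all genes, and the exception, Syvn1, had 0.40 (-0.02 to 0.84). Among genes that are no members, 8 with an ERSE had enough UMIs, and of these 1 was higher and 1 lower, with a median of -0.22. In the other classes the ERSE members had medians of 1.60 in cardiomyocyte-like, 0.77 in endothelial-like, 1.01 in macrophage-like and 0.87 in pericyte-like cells. In fibroblast-like cells 6 of the 8 were at least 1.5-fold below TAC in TAC+ART, against 7.57% of all genes, with a median of -0.72. This was so for 5 of 6 ERSE members in cardiomyocyte-like and 5 of 8 in macrophage-like cells, against 19% and 6.69%. It was so for 0 of 8 in endothelial-like and 1 of 7 in pericyte-like cells, against 5.36% and 5.33%. Among genes that are no members, 10 with an ERSE had enough UMIs for this comparison in fibroblast-like cells. Of these 3 were higher and 1 lower in TAC+ART than in TAC, against 8.07% and 7.57% of all genes, with a median of 0.38. Herpud1 and Dnajb11, which hold ERSE-II, went opposite ways in TAC over Sham in fibroblast-like cells, at -0.58 and 0.98. Serpinh1, the highest member, has no ERSE, ERSE-II, UPRE or CARE letters in its window, and neither does Pdia3. The members were chosen for their function, which for many rests on such elements, so the share of ERSE among them is a description and not independent of the choice.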

How the data were processed

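The deposited files hold raw UMI counts per gene and barcode, 1 matrix for each library, as the authors deposited them; the submitters' processing notes name Cell Ranger, Seurat and mm10 without giving their roles, and versions and any earlier removal of barcodes or doublets are not given in these sources. Members and gene lists were chosen with earlier results of these data known. The library labelled ART is the TAC + ART group of the design text.

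Barcodes with under 500 UMIs, under 300 genes or over 10% mitochondrial UMIs were dropped (0 in TAC+ART, 1 in TAC and 2 in Sham). Doublets were scored against simulated pairs (2 per barcode, 2000 variable genes, 30 components), and the top 0.8% per 1000 barcodes was removed, or 5.48%, 5.94% and 2.99%. For each class the log-scaled levels of its markers, each capped at the 90th percentile of positive cells, were averaged and centred on the library median; a cell entered a class at a score of at least 0.15 and a margin of at least 0.1. This scoring rule was set after the marker data were seen. Leiden clusters (resolution 1, 3000 variable genes without the members) numbered 27, of which 2 were left unnamed. They were made from all libraries together, without correction between libraries.

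Sums of UMIs over the cells of a class in a library were scaled to CPM. Ratios carry exact conditional binomial intervals and levels exact Poisson intervals, both at 95% and for counting error only. With 1 library per group no test was run. Every member may be named; of each other list, up to 2 of the highest and 2 of the lowest ratios among genes with at least 100 UMIs may be. The interval and ratio code was tested on simulated data. Gene spans came from GENCODE and promoters from RefSeq. Python 3.11.15, numpy 2.4.6, scipy 1.17.1, pandas 2.3.3, scikit-learn 1.9.0, leidenalg 0.10.2 and matplotlib 3.10.9 were used. Another 12 settings were tried, and 2 more were added after the data were seen.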

Additional observations from a re-analysis of the deposited data

Results flagged for a closer look

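Ddit3, which encodes CHOP, passed 1.5-fold in opposite directions in 2 classes under the same comparison. Its TAC over Sham ratio was 0.62 (-0.01 to 1.36) in macrophage-like cells and -0.97 (-1.59 to -0.41) in cardiomyocyte-like cells, a difference of 1.59 on the log2 scale. The difference was not tested, since each group had 1 library. In cardiomyocyte-like cells of cluster 11 the Ddit3 ratio was -1.02.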

How the results depend on the processing

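No paired analysis was possible because each group had 1 library. Across 12 alternative settings and 2 more that were chosen after seeing the data (cells on which gate and clusters agreed, and fibroblast-like cells of cluster 5), 340 of the recomputed counts and medians stayed within 1.5 times the reported count or near the reported median, and 63 did not. The median of fibroblast-like cells stayed between 0.52 and 0.77 for TAC over Sham and between -0.53 and -0.33 for TAC+ART over TAC. The cause of each shift below was not tested. A higher fold can only lower a count, and a higher minimum of UMIs or fewer cells leave fewer genes tested.

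At 2-fold, members higher in TAC than in Sham numbered 9 of 29 in fibroblast-like, 8 of 23 in cardiomyocyte-like, 4 of 30 in endothelial-like, 6 of 29 in macrophage-like and 5 of 23 in pericyte-like cells, against 7.95%, 17.3%, 3.94%, 4.82% and 4.35% of all genes. At that fold 0 were lower in cardiomyocyte-like and endothelial-like cells, against 7.04% and 2.24%. In TAC+ART over TAC, 2 of 30 were lower in fibroblast-like, 2 of 24 in cardiomyocyte-like and 4 of 29 in macrophage-like cells, against 1.73%, 5.59% and 1.69% of all genes. None was lower (0) in endothelial-like and pericyte-like cells, against 1.37% and 0.855%, while 0 were higher in fibroblast-like and 1 of 24 in cardiomyocyte-like cells, against 2.39% and 2.43%. In TAC+ART over Sham, 1 of 29 was higher and 0 lower in fibroblast-like cells, against 3.15% and 1.46%.

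With at least 200 UMIs, 7 of 9 cardiomyocyte-like and 6 of 11 pericyte-like members were higher in TAC than in Sham, against 22.3% and 8.74% of all genes, and 0 were lower in cardiomyocyte-like, endothelial-like and fibroblast-like cells, against 23.8%, 6.19% and 9.76%. In TAC+ART over TAC, 7 of 23 were lower in macrophage-like and 1 of 25 in endothelial-like cells, against 4.63% and 3.75%, and 0 of 11 were higher in cardiomyocyte-like and 1 of 26 in fibroblast-like cells, against 10.9% and 5.22%; in TAC+ART over Sham 0 of 24 were lower in fibroblast-like cells, against 3.32%. With no minimum, the shares of all genes also widened. In TAC+ART over TAC, 10 of 32 were then lower in cardiomyocyte-like cells, against 29.2%, and 2 of 33 were higher in macrophage-like and 1 of 32 in pericyte-like cells, against 18.0% and 22.5%. At that setting 2 of 33 were lower in endothelial-like and 2 of 33 in macrophage-like cells in TAC over Sham, against 22.9% and 34.4%, and 2 of 32 were lower in fibroblast-like cells in TAC+ART over Sham, against 19.2%.

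With clusters in place of the gate, cardiomyocyte-like cells had 8 of 19 members higher and 4 lower in TAC than in Sham, against 14.8% and 14.0% of all genes, with a median of 0.20. Their TAC+ART over TAC median was -0.07, with 4 of 19 lower and 3 higher, against 11.4% and 7.88%, and Pdia6 turned from below 0 to a TAC+ART over TAC ratio of 0.020. Fibroblast-like cells then had 8 of 30 members lower in TAC+ART than in TAC, against 7.15%, and 0 of 29 lower than in Sham, against 5.81%. Endothelial-like cells had 0 of 30 lower in TAC+ART than in TAC, against 5.48%. Where gate and clusters agreed, cardiomyocyte-like cells had 8 of 18 higher and 4 lower in TAC over Sham, against 14.7% and 14.6% of all genes. They had 4 of 18 higher in TAC+ART over TAC, against 8.11%. Endothelial-like cells had 1 of 30 lower in TAC+ART over TAC, against 5.80%, and fibroblast-like cells 2 of 29 lower in TAC+ART over Sham, against 5.77%. With a stricter gate, 2 of 30 endothelial-like members were lower in TAC over Sham, against 9.42% of all genes. In fibroblast-like cells, 2 of 28 members were then lower in TAC+ART over Sham, against 6.005%. There 1 of 29 was higher in TAC+ART over TAC, against 7.98%.

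In fibroblast-like cells, members lower in TAC than in Sham numbered 3 of 26 in cluster 5 and 0 of 26 without a Postn UMI. These stand against 12.2% and 12.6% of all genes, so the first was at the background. They numbered 2 of 29 with 5 counts added, cells of at most 8000 UMIs, equal weight for each cell or median-of-ratios scaling. The shares of all genes were 13.6%, 12.6%, 13.8% and 13.7% in that order. Members lower in TAC+ART than in TAC numbered 7 of 25 in cluster 5 and 7 of 25 without a Postn UMI, against 7.59% and 9.02% of all genes, and those higher numbered 0 without a Postn UMI and 1 with doublets kept or cells of at most 8000 UMIs. The 8000 UMI limit also left 1 of 22 higher in cardiomyocyte-like cells in TAC+ART over TAC, against 10.3% of all genes. It left 1 of 30 lower in endothelial-like and 1 of 25 in pericyte-like cells, against 5.55% and 5.72%. Equal weight left 1 of 30 lower in endothelial-like and 1 of 26 in pericyte-like cells in that comparison, against 5.87% and 6.17%. With 5 added counts, 2 of 30 were lower in endothelial-like cells in TAC over Sham, against 10.6%.

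Depth limits Derl3 and Chac1 in all 5 classes compared, Asns and Sdf2l1 in most of them, and members of cardiomyocyte-like and pericyte-like cells more than the rest. The spread between mice is unknown, so no interval covers it.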
